A study of Mus musculus with 9 samples.

Results

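The genes described here are 10 regulators and markers of plasma cells, the antibody-secreting end stage of the B lineage: *Prdm1*, *Irf4*, *Xbp1*, *Pou2af1*, *Ell2*, *Tent5c*, *Mzb1*, *Jchain*, *Sdc1* and *Slamf7*. They were taken by gene symbol from a table of 55322 mouse genes, and all 10 were found there once. The B cells, split by sorting into a CD11b+ and a CD11b- group, came from the bone marrow (BM) of wild-type C57BL/6 mice 48 h after an intraperitoneal injection of lipopolysaccharide (LPS, 5 mg/kg), which is part of the outer membrane of many bacteria and activates B cells through a Toll-like receptor. Peritoneal macrophages (PMs, CD11b+F4/80+) came from the peritoneal cavity of wild-type mice that had received no treatment, and each of the 3 groups had 3 libraries. All mice were of one wild-type background with no engineered allele, no BM B cells from untreated mice were among these samples, and other lineages (T, NK, granulocytic and erythroid cells) had been removed from the BM by their surface markers before the sort. The sources used here give neither the ages of the mice nor how many mice made up a library, so the p-values below measure the spread between libraries, which may in part be technical.

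When a B cell becomes a plasma cell, IRF4 and BLIMP-1 (encoded by *Prdm1*) shut down the B cell program, and XBP1 enlarges the endoplasmic reticulum for secretion. ELL2 favours the short, secreted form of heavy chain mRNA, MZB1 helps to assemble and export immunoglobulin, and the J chain joins IgM into pentamers and IgA into dimers. The bone marrow is known as a home of long-lived plasma cells, and LPS is a classical trigger of short-lived plasmablasts from mature B cells.

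The most abundant of the 10 genes was *Pou2af1* in each CD11b- library and in CD11b+ replicates 1 and 2, and *Jchain* in CD11b+ replicate 3. Levels are given as FPKM, read pairs on a gene scaled to its exon length and to the depth of the library, a unit that allows genes of different length to be compared. In CD11b- B cells the mean FPKM fell from *Pou2af1* (212) through *Xbp1* (61.0), *Irf4* (29.4), *Mzb1* (20.5), *Slamf7* (17.8) and *Jchain* (15.4) to *Ell2* (3.53), *Sdc1* (2.33), *Prdm1* (0.798) and *Tent5c* (0.619). In CD11b+ B cells the mean was highest for *Jchain* (211), followed by *Pou2af1* (180), *Xbp1* (97.1), *Mzb1* (53.4), *Irf4* (23.4), *Slamf7* (14.8), *Ell2* (4.99), *Sdc1* (4.19), *Tent5c* (4.14) and *Prdm1* (1.71). Without CD11b+ replicate 3 the order began with *Pou2af1* (165), *Xbp1* (94.0) and *Jchain* (92.6), and *Tent5c* (3.39) lay above *Sdc1* (2.37). Over the 3 groups, *Jchain*, *Mzb1* and *Ell2* were highest in CD11b+ B cells, intermediate in CD11b- B cells and lowest in PMs, with no overlap between neighbours, an order without overlap that 1.49% of 22200 genes had, while for *Prdm1* and *Sdc1* each neighbouring pair of groups overlapped. These are levels of the pooled RNA of each sort. In such bulk samples, fewer cells of a type and less RNA per cell cannot be told apart.

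**Figure D1:**
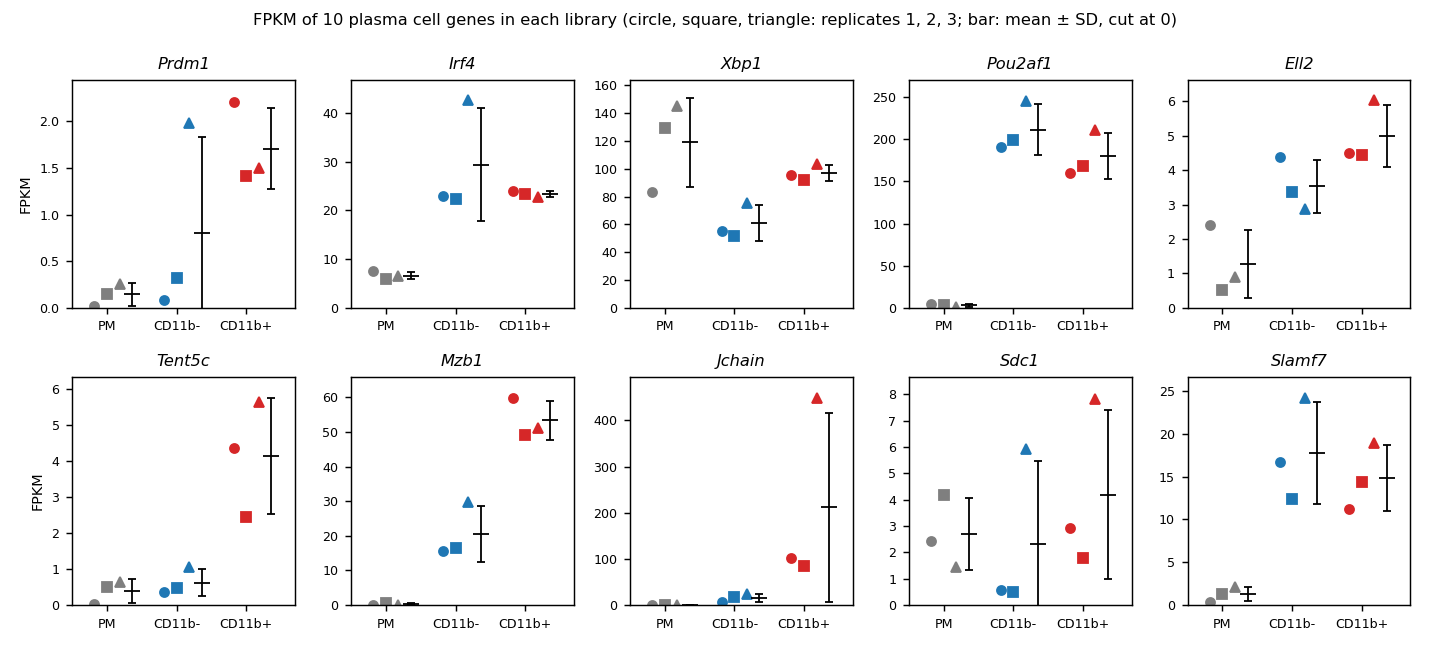
FPKM (y axis, linear, from 0) of the 10 plasma cell genes in each of the 9 libraries, with PMs in grey, CD11b- B cells in blue and CD11b+ B cells in red. Circles, squares and triangles are replicates 1, 2 and 3, and the bar is the mean ± SD (n = 3), cut at 0. The red points lie above all blue points for *Xbp1*, *Ell2*, *Tent5c*, *Mzb1* and *Jchain*.

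The libraries held between 18014658 and 35251215 reads on genes. The labels were checked with marker genes. The summed FPKM of 9 B cell markers (such as *Cd79a* and *Cd79b*) was 5501 to 5731 in CD11b- B cells. It was lower, at 4231 to 4763, in CD11b+ B cells, and 53.7 to 91.1 in PMs. Of the 9, 4 lay without overlap lower in CD11b+ B cells and 0 higher, beside 6.32% and 8.63% of all genes tested. The 8 markers of resident peritoneal macrophages summed to 3578 to 4214 in PMs and 64.3 to 81.0 in B cells, of which *Icam2* alone made up 51.3 to 77.1. Of 7 of these 8 that could be tested between the B cell groups, 6 lay without overlap higher in CD11b+ B cells. The sum of 12 monocyte and macrophage markers was 41.3 to 57.8 in CD11b- B cells and 317, 295 and 117 in CD11b+ replicates 1, 2 and 3, and 10 of the 12 lay without overlap higher in CD11b+ B cells, beside 8.63% of all genes tested. The sum of 13 neutrophil markers was 2.03 to 3.16 in CD11b- B cells and 660, 1586 and 218 in CD11b+ replicates 1, 2 and 3, with none of the 12 or the 13 at 0 in every library of either group. The part of these sums in the differences below was not tested. A pair of libraries stood apart for the plasma cell genes. CD11b- replicate 3 had the highest value of its group for 9 of the 10 (all but *Ell2*), whereas it was highest for 35.8% of 21778 genes, and CD11b+ replicate 3 was highest for 7 of the 10, against 37.1% of genes. Where leaving out 1 of them moved a ratio by over 1.5 times, or changed a sign or a call, of 1 of the 10 genes between the B cell groups, the value without it is given beside the gene.

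The sequence just before the RefSeq start of transcription is shown for *Jchain* and *Tent5c*, the pair with the highest ratios between CD11b+ and CD11b- B cells. It is also shown for *Pou2af1*, the most abundant regulator and the only one with a motif match. By the GENCODE positions given below, part of the *Tent5c* window, and some windows not shown, lie inside the gene. The sequences are RefSeq promoters (GRCm38.p6), 250 bases up to the start, read 5′ to 3′ on the strand of the gene, and capitals mark the match. *Jchain* is on the minus strand at chr5:88527898-88528147, *Tent5c* on the minus strand at chr3:100489193-100489442 and *Pou2af1* on the plus strand at chr9:51213440-51213689.
Jchain: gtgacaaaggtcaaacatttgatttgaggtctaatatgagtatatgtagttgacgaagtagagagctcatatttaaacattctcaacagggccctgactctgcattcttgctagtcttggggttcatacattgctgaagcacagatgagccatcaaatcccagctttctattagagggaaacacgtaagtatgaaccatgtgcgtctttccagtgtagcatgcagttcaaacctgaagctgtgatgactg
Tent5c: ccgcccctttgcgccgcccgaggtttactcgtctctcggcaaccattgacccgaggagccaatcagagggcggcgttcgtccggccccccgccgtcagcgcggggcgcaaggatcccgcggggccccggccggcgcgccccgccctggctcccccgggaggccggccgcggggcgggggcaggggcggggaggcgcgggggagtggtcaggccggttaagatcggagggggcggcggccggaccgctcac
Pou2af1: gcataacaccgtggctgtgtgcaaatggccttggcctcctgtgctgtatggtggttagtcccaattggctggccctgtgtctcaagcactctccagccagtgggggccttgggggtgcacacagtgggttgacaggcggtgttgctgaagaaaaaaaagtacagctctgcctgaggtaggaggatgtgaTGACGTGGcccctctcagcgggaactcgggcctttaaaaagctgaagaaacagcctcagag

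A promoter was matched for 9 of the 10 genes (not *Mzb1*). Motifs were searched on both strands: the octamer ATGCAAAT bound by the partners of POU2AF1, the XBP1 element TGACGTGG, the BLIMP-1 core GTGAAAG and the IRF repeat GAAANNGAA. They occur in 1.6%, 0.563%, 3.57% and 7.13% of 32851 RefSeq promoters of the same length. The *Pou2af1* promoter held the XBP1 element 61 to 54 bases before the start. No other match was found in the 9 windows, which says only that these letters are not in these 250 bases.

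In CD11b+ compared with CD11b- B cells, the comparison that asks what marks the B cells that carry CD11b after LPS, 5 of the 10 genes (*Jchain*, *Mzb1*, *Tent5c*, *Xbp1* and *Ell2*) were higher in every CD11b+ library than in any CD11b- library. The mean of *Jchain* was 13.7 times, that of *Tent5c* 6.68 times and that of *Mzb1* 2.60 times as high, while *Irf4*, *Pou2af1* and *Slamf7* had ratios of 0.795, 0.851 and 0.834. None of the 10 passed the test across all genes. By limma on log2(FPKM + 1) with Benjamini-Hochberg adjustment over 21778 genes, 0 of the 10 were called in either direction at an adjusted p of 0.05, beside 0.0689% of all genes called higher and 0% called lower. Before adjustment, 4 of the 10 had a p under 0.05 in limma (*Jchain*, *Mzb1*, *Tent5c* and *Xbp1*), all with higher means in CD11b+ B cells, beside 4.65% of all genes on the higher side and 3.04% on the lower. On the reads recovered from FPKM, edgeR's quasi-likelihood test called 0 of the 10, beside 0.269% of 15588 genes called higher and 0% called lower. DESeq2 called 3 higher (*Jchain*, *Mzb1* and *Tent5c*), beside 1.89% of 17324 genes called higher and 0.369% called lower. The 5 genes without overlap were all higher in CD11b+ B cells, where 8.63% of all genes tested lay without overlap on the higher side and 6.32% on the lower. The median difference of the 10 was 0.70 on the log2 scale, beside 0.03 for all genes tested.

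**Figure D2:**
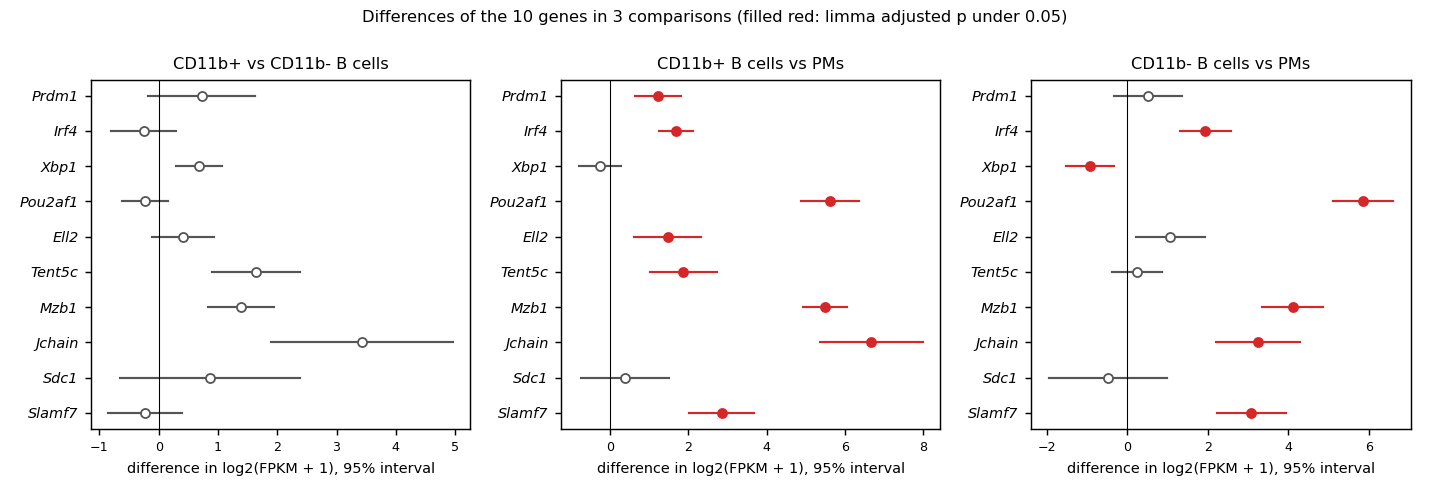
Difference in mean log2(FPKM + 1) (x axis) of each of the 10 genes in 3 comparisons, with its 95% interval from limma (n = 3 against 3). Filled red points passed an adjusted p of 0.05: 0 genes between the B cell groups, 8 between CD11b+ B cells and PMs, and 6 between CD11b- B cells and PMs. The panels share libraries and have different x ranges.

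Among the regulators, *Xbp1* lay without overlap between the B cell groups, and *Prdm1*, *Irf4* and *Pou2af1* overlapped. *Prdm1* (chr10:44437177-44528501, minus strand, GRCm38) encodes BLIMP-1, the repressor that ends the B cell program. Its FPKM was 0.0859, 0.324 and 1.99 in CD11b- replicates 1, 2 and 3, and 2.21, 1.41 and 1.51 in CD11b+ replicates 1, 2 and 3. All CD11b+ libraries and CD11b- replicate 3 were high and the remaining CD11b- libraries low, so the groups overlapped. These levels rest on few reads, 16, 63 and 355 in CD11b- and 362, 206 and 296 in CD11b+ B cells. The difference was 0.73 ± 0.39 (SE) on the log2(FPKM + 1) scale (limma, adjusted p = 0.687) and 1.70 with a pseudocount of 0.1, and the ratio of means was 2.14 with all libraries and 8.34 without CD11b- replicate 3.

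*Irf4* (chr13:30749226-30766976, plus strand) encodes the factor that switches activated B cells to plasma cells when its level is high. It stood at 22.9, 22.5 and 42.8 FPKM in CD11b- B cells and at 24.0, 23.3 and 22.8 in CD11b+ B cells. The other libraries lay close together, with CD11b- replicate 3 alone above them. The difference was -0.25 (95% interval -0.81 to 0.30, limma adjusted p = 0.727) and became 0.041 without that library.

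*Xbp1* (chr11:5520659-5525893, plus strand) encodes the transcription factor of the unfolded protein response, which becomes active once its mRNA is spliced by IRE1. Gene-level values do not tell the spliced from the unspliced mRNA. Its level was 55.4, 51.7 and 75.8 FPKM in CD11b- B cells and 95.7, 92.2 and 103 in CD11b+ B cells, without overlap and with CD11b- replicate 3 the highest of its group. The difference was 0.68 ± 0.17 (SE, 95% interval 0.30 to 1.06), with a p of 0.00347 before adjustment and 0.350 after it in limma, and it was 0.85 without CD11b- replicate 3.

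*Pou2af1* (chr9:51213708-51240080, plus strand) encodes the coactivator OCA-B, which joins OCT factors on immunoglobulin promoters. Its values of 191, 199 and 246 FPKM in CD11b- and 160, 169 and 211 in CD11b+ B cells overlapped, with replicate 3 highest in both groups. The difference was -0.23 (95% interval -0.63 to 0.16, limma adjusted p = 0.727), and it was -0.12 without CD11b- replicate 3 and -0.35 without CD11b+ replicate 3. The gene overlaps *Gm47828* on the same strand, and whether reads were counted by strand was not given.

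The genes of RNA processing and RNA stability lay higher in every CD11b+ library, *Tent5c* by far more than *Ell2*. *Ell2* (chr13:75706757-75772364, plus strand) encodes the elongation factor that favours secreted heavy chain mRNA. It read 4.37, 3.36 and 2.87 FPKM in CD11b- and 4.50, 4.44 and 6.02 in CD11b+ B cells. The groups did not overlap, but the lowest CD11b+ library was only 1.02 times the highest CD11b- library, and *Ell2* was the single gene of the 10 with its lowest value in CD11b- replicate 3. The difference was 0.41 (95% interval -0.12 to 0.93, limma adjusted p = 0.692). Its span holds *1700037F03Rik*, *Gm48302* and *Gm23127*, with which it may share reads.

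*Tent5c* (chr3:100451628-100489324, minus strand) encodes a cytoplasmic poly(A) polymerase that stabilises immunoglobulin and other secretory mRNAs in plasma cells. Its level was 0.359, 0.461 and 1.04 FPKM (73, 98 and 203 reads) in CD11b- B cells and 4.35, 2.44 and 5.63 FPKM (779, 389 and 1210 reads) in CD11b+ B cells. Every CD11b+ library was at least 2.35 times as high as any CD11b- library. The difference was 1.64 ± 0.32 (SE, 95% interval 0.89 to 2.38), with an adjusted p of 0.214 in limma and 6.11e-07 in DESeq2, where the log2 fold change of the reads was 2.72. With a pseudocount of 0.1 in place of 1 the difference was 2.60. The ratio of means, 6.68, was 10.1 without CD11b- replicate 3 and 5.48 without CD11b+ replicate 3.

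*Mzb1* and *Jchain*, the genes of antibody assembly, were higher in each CD11b+ library. *Mzb1* (chr18:35647267-35649367, minus strand) encodes a chaperone of the endoplasmic reticulum that is also abundant in marginal zone and B-1 B cells. The 3 CD11b- libraries held 15.5, 16.3 and 29.8 FPKM and the CD11b+ libraries 59.9, 49.3 and 51.2. The CD11b+ libraries lay within a narrow range, and CD11b- replicate 3 lay between them and the rest of its own group. The difference was 1.39 ± 0.24 (SE, 95% interval 0.84 to 1.95), with an adjusted p of 0.140 in limma and 0.000445 in DESeq2. Without CD11b- replicate 3 it was 1.68 and passed the test (limma adjusted p = 0.0289). *Gm50318* overlaps the gene on the same strand.

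*Jchain* (chr5:88519809-88527891, minus strand) had the highest ratio of mean FPKM of the 10. FPKM was 6.18, 17.4 and 22.7 in CD11b- replicates 1, 2 and 3 (519, 1528 and 1828 reads) and 101, 83.9 and 449 in CD11b+ replicates 1, 2 and 3 (7489, 5525 and 39819 reads). The groups were far apart, with 3.70 times between the lowest CD11b+ and the highest CD11b- library, and CD11b+ replicate 3 held 4.85 times the mean of the other two of its group. The difference was 3.43 ± 0.66 (SE, 95% interval 1.90 to 4.96), with an adjusted p of 0.204 in limma and 0.00512 in DESeq2. The ratio of means was 13.7 with all libraries, 6.01 without CD11b+ replicate 3 and 17.9 without CD11b- replicate 3. The neutrophil marker sum was lowest in CD11b+ replicate 3, where *Jchain* was highest, and its part in the level of *Jchain* was not tested.

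The surface markers overlapped between the B cell groups. *Sdc1* (chr12:8771323-8793715, plus strand) encodes syndecan-1, or CD138, the standard surface marker of plasma cells. FPKM was 0.559, 0.482 and 5.94 (71, 64 and 725 reads) in CD11b- and 2.94, 1.80 and 7.83 (329, 179 and 1051 reads) in CD11b+ B cells. Replicate 3 was far above the others in both groups, at 11.4 times the mean of the other two in CD11b- and 3.31 times in CD11b+ B cells. The difference was 0.87 (95% interval -0.66 to 2.39, limma adjusted p = 0.727), and 1.43 with a pseudocount of 0.1. The ratio of means was 1.80 with all libraries, 8.05 without CD11b- replicate 3 and 1.02 without CD11b+ replicate 3.

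*Slamf7* (chr1:171632403-171653035, minus strand) encodes a receptor of the SLAM family found on plasma cells, NK cells and some activated B cells. Its FPKM of 16.7, 12.4 and 24.3 in CD11b- and 11.2, 14.4 and 18.9 in CD11b+ B cells overlapped, with replicate 3 highest in both groups. The difference of -0.23 (95% interval -0.85 to 0.39, limma adjusted p = 0.771) became 0.011 without CD11b- replicate 3. *Gm37787* and *Mir7683* overlap the gene.

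**Figure D3:**
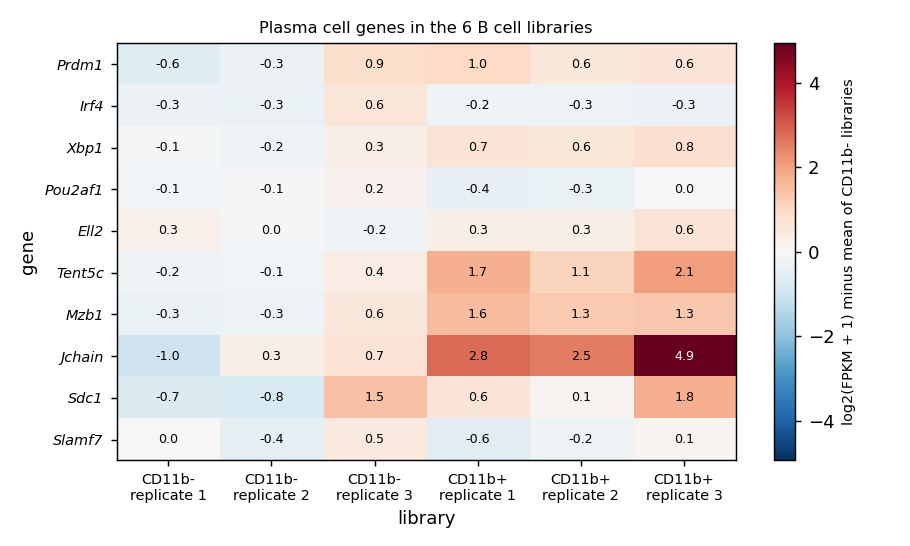
Heatmap of log2(FPKM + 1) of the 10 genes (rows) in the 6 B cell libraries (columns), each value less the mean of the CD11b- libraries. Red is higher and blue lower, and the printed number is the difference. *Jchain* in CD11b+ replicate 3 is farthest from the CD11b- mean, at 4.94, and in the column of CD11b- replicate 3 every gene except *Ell2* is above 0.

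The pattern of *Jchain* over the 6 B cell libraries was most like those of *Chchd1*, *Rplp0* and *Plec* (Pearson r = 0.997, 0.991 and 0.991 on log2(FPKM + 1), among 11986 genes with a mean of at least 1 FPKM). That of *Prdm1* was most like those of *H1f0*, *Gsap* and *Bdp1* (r = 0.983, 0.976 and 0.960). With 6 libraries that fall into a pair of groups these correlations are descriptions only.

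The heavy chains that the J chain can join were compared with it. The ratio of *Jchain* FPKM to that of *Ighm*, the constant gene of IgM, in percent was 0.109%, 0.343% and 0.329% in CD11b- replicates 1, 2 and 3 and 1.43%, 1.31% and 4.84% in CD11b+ replicates 1, 2 and 3. The ratio was thus higher in each CD11b+ library, while *Ighm* itself differed by 0.36 (limma adjusted p = 0.750). *Igha*, the constant gene of IgA, had 1.61, 3.10 and 1.99 FPKM in CD11b- and 5.76, 7.16 and 35.9 in CD11b+ B cells, and its highest library was the one with the highest *Jchain*. Of 12 immunoglobulin constant genes, 1 was called higher in CD11b+ B cells and 0 were called lower, beside 0.0689% and 0% of all genes tested, and their median difference was 0.50. That gene was *Ighg2c*, a class that the J chain does not join, with 0.0226, 1.21 and 0.118 FPKM in CD11b- and 14.9, 29.6 and 37.1 in CD11b+ B cells, a difference of 4.28 ± 0.41 (SE, limma adjusted p = 0.0184). *Ighg2c* was called in 10 of 16 alternatives. It was not called without a filter on FPKM, in edgeR, or with a replicate block by description number (which left 0 calls over all genes). Nor was it called without CD11b- replicate 1, CD11b- replicate 3 or CD11b+ replicate 2. The adjusted p of limma or edgeR in these settings lay from 0.0662 to 0.656. Immunoglobulin genes took 2.73% to 5.03% of reads in B cells, with the highest share in CD11b+ replicate 3.

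**Figure D4:**
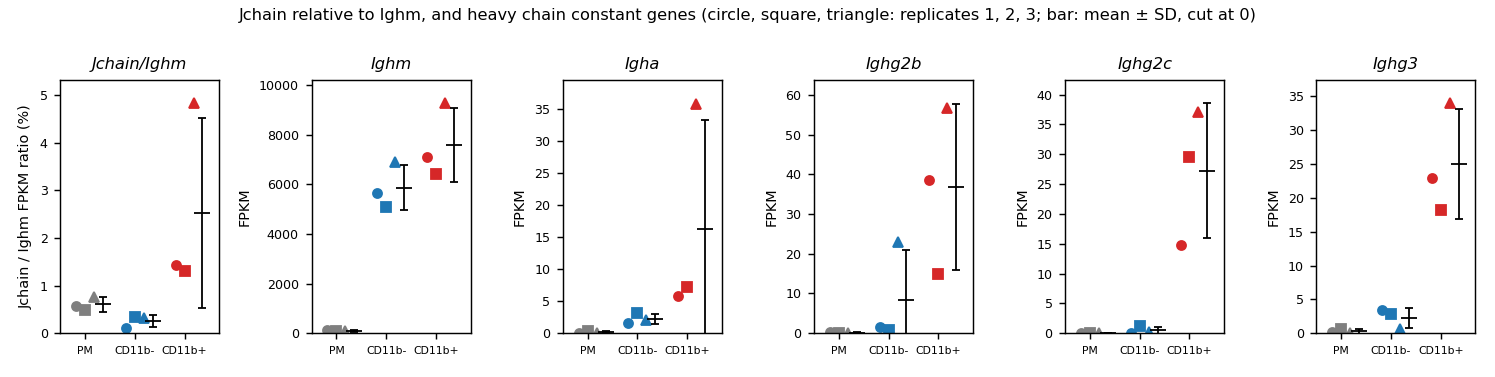
Ratio of *Jchain* FPKM to *Ighm* FPKM in percent (left) and FPKM of 5 heavy chain constant genes in each library, with linear y axes from 0 that differ between panels. Circles, squares and triangles are replicates 1, 2 and 3, and bars are mean ± SD (n = 3), cut at 0. The ratio in CD11b+ replicates 1, 2 and 3 (1.43%, 1.31% and 4.84%) lies above every other library.

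A further 20 genes of plasma cells and their secretory pathway were examined as a list. In CD11b+ compared with CD11b- B cells 2 of the 20 rose and 0 fell by limma, 11 lay without overlap on the higher side and 1 on the lower, and the median difference was 0.45. Of all genes tested 0.0689% were called higher and 0% lower, and 8.63% lay without overlap on the higher side and 6.32% on the lower. The 2 that rose act in protein folding. *Creld2*, induced by stress of the endoplasmic reticulum, had 46.8, 53.3 and 41.9 FPKM in CD11b- and 162, 135 and 161 in CD11b+ B cells, a difference of 1.67 ± 0.15 (SE, limma adjusted p = 0.0135). *Sdf2l1*, a cofactor of the chaperone BiP, had 46.3, 43.4 and 45.4 FPKM in CD11b- and 117, 97.8 and 106 in CD11b+ B cells, a difference of 1.22 ± 0.12 (SE, limma adjusted p = 0.0275). Both were even within each group, and neither was highest in CD11b- replicate 3. Each was called in 8 of 16 alternatives. Neither was called in limma without a filter on FPKM, with all 9 libraries in one fit, with a replicate block by description number (which left 0 calls over all genes), or when any library other than CD11b+ replicate 3 was left out, where the adjusted p lay between 0.0531 and 0.734. *Derl3*, *Fkbp11* and *Tnfrsf17*, named here after their values were seen, had differences of 1.92, 1.74 and 1.39 with limma adjusted p-values of 0.103, 0.153 and 0.636. *Tnfrsf17* (the plasma cell receptor BCMA) was highest in CD11b+ replicate 3 as *Jchain* was, with 1.84, 0.328 and 5.99 FPKM in CD11b+ replicates 1, 2 and 3.

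**Figure D5:**
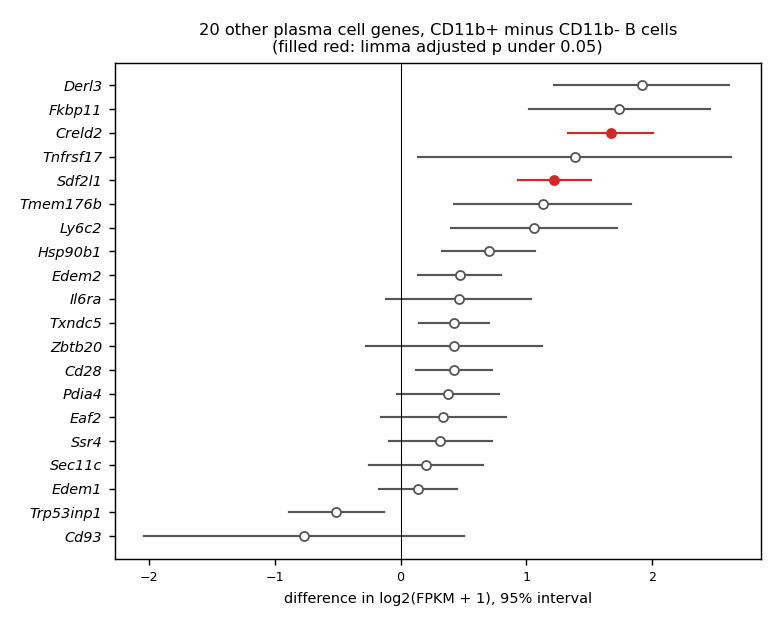
Difference in mean log2(FPKM + 1) between CD11b+ and CD11b- B cells (x axis) for 20 other plasma cell genes, ordered by size, with 95% intervals from limma (n = 3 against 3). *Creld2* (1.67) and *Sdf2l1* (1.22), in filled red, passed an adjusted p of 0.05, and *Trp53inp1* and *Cd93* have their point below 0.

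Of 17 genes that are shut down in plasma cells, among them *Pax5*, *Bach2* and *Spib*, 0 were called in either direction between the B cell groups by limma. An unadjusted p under 0.05 in limma was found for 2 (*Spib* and *Irf8*, both with lower means in CD11b+ B cells). Of all genes tested, 3.04% were lower and 4.65% higher at that unadjusted p. Their median difference was -0.25, and 4 lay without overlap on the lower side and 0 on the higher, beside 6.32% and 8.63% of all genes tested. The 9 B cell markers had a like shift, with a median difference of -0.25 and 4 lower and 0 higher without overlap. *Pax5*, *Ebf1*, *Cd22*, *Ms4a1* and *Fcer2a* are in both lists. *Spib*, named after its values were seen, had 747, 684 and 897 FPKM in CD11b- and 484, 532 and 438 in CD11b+ B cells (limma adjusted p = 0.441). *Pax5*, which keeps B cell identity, had a difference of 0.14 (limma adjusted p = 0.783).

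Partners and paralogs of the 10 genes gave 0 calls among 24 tested of 27 between the B cell groups in limma, with a median difference of -0.07. In either direction 4 had an unadjusted p under 0.05 in limma, beside 4.65% of all genes tested on the higher side and 3.04% on the lower. On the lower side in CD11b+ B cells 7 of the 24 lay without overlap and on the higher side 2, where 6.32% and 8.63% of all genes did. *Pou2f2*, which encodes the OCT-2 partner of POU2AF1, had 15.2, 19.0 and 19.9 FPKM in CD11b- and 16.0, 19.0 and 28.1 in CD11b+ B cells. *Ern1*, which encodes the IRE1 that splices *Xbp1* mRNA, had 1.36, 0.761 and 1.53 FPKM in CD11b- and 0.991, 0.883 and 0.955 in CD11b+ B cells. Both overlapped between the groups. Of the paralogs, *Sdc4* (97.6, 109 and 103 FPKM in CD11b- B cells) was far more abundant than *Sdc1*, *Tent5a* (9.37, 9.12 and 10.8) was above *Tent5c*, and *Slamf6* (26.3, 24.5 and 31.6) was above *Slamf7*.

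Compared with PMs, CD11b+ B cells had higher levels of 8 of the 10 genes. In limma 8 were called higher and 0 lower, beside 21.5% of 22102 genes called higher and 8.78% called lower, and the median difference of the 10 was 1.78 beside 0.25 for all genes tested. The exceptions were *Xbp1* and *Sdc1*. This comparison joins cell type, tissue and LPS, which cannot be told apart, and it shares the PM libraries with the next one. Of all calls 71% were higher as deposited and 51% after median-ratio scaling, which moved the median of genes with at least 1 FPKM from 0.53 to 0.04.

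In PM replicates 1, 2 and 3, *Jchain* had 0.662, 0.326 and 0.650 FPKM, *Mzb1* 0.0457, 0.535 and 0.0816 and *Pou2af1* 4.64, 2.77 and 1.28. *Jchain* and *Mzb1* were thus near the floor of the scale in PMs, with 87 and 22 reads over the PM libraries, and *Pou2af1* had 485 reads. The differences of CD11b+ B cells from PMs were 6.68 for *Jchain* (limma adjusted p = 9.03e-05), 5.5 for *Mzb1* (3.04e-06) and 5.62 for *Pou2af1* (1.06e-05), and those of *Jchain* and *Mzb1* understate the fold of genes so low in PMs. The mean in PMs was 3.54%, 1.08% and 1.37% of that in CD11b- B cells for these genes. The sum of B cell markers in PM replicates 1, 2 and 3 was 1.61%, 0.952% and 0.970% of its mean in CD11b- B cells, and its part in these levels was not tested.

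*Irf4* had 7.49, 5.95 and 6.45 FPKM in PMs, a level well above that of the assembly genes, and its difference in CD11b+ B cells was 1.68 (limma adjusted p = 0.000391). *Slamf7* had 0.388, 1.29 and 2.11 FPKM and a difference of 2.85 (limma adjusted p = 0.000746). For *Prdm1* the PM libraries held 0.0199, 0.153 and 0.258 FPKM, or 2, 25 and 29 reads, and the difference was 1.24 (limma adjusted p = 0.00813). *Tent5c* had 0.0182, 0.500 and 0.634 FPKM, and the difference was 1.87 (limma adjusted p = 0.00679). The values of *Prdm1* and *Tent5c* also understate the fold of genes so low in PMs, and with a pseudocount of 0.1 they were 3.0 and 3.43. In all, 8 of the 10 genes lay in CD11b+ B cells without overlap above the PM libraries and 0 below, where 34.3% of all genes tested lay without overlap on the higher side and 12.4% on the lower.

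*Ell2* had 2.41, 0.512 and 0.903 FPKM in PMs and a difference of 1.47 (limma adjusted p = 0.0194). This call was the least steady of the 8: the adjusted p was 0.0531 without PM replicate 2, 0.0550 without PM replicate 3, and 0.0657, 0.0652 and 0.0645 without CD11b+ replicates 1, 2 and 3. *Xbp1* was at 83.1, 129 and 145 FPKM in PMs, which overlapped the CD11b+ libraries, and its difference of -0.25 was not called by limma (adjusted p = 0.427), while edgeR and DESeq2 called it lower (-0.82 in both, adjusted p = 0.0485 and 0.0362), beside 18.1% and 19.3% of all genes called lower by these tools. *Sdc1*, at 2.43, 4.18 and 1.46 FPKM in PMs, also overlapped, with a difference of 0.38 (95% interval -0.74 to 1.5, limma adjusted p = 0.545).

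CD11b- B cells differed from PMs in 6 of the 10 genes. In limma 5 were called higher (*Irf4*, *Jchain*, *Mzb1*, *Pou2af1* and *Slamf7*) and 1 lower (*Xbp1*), beside 25.8% of 20985 genes called higher and 11% called lower, and the median difference was 1.5 beside 0.24 for all genes tested. Of all calls 70.1% were higher as deposited and 51.4% after median-ratio scaling. *Jchain* differed by 3.25 (limma adjusted p = 0.00117), *Mzb1* by 4.10 (7.11e-05) and *Pou2af1* by 5.86 (9.58e-06). *Irf4* differed by 1.93 (limma adjusted p = 0.00131) and *Slamf7* by 3.08 (0.000625). Of the 10 genes, 6 lay without overlap higher than in PMs and 1 lower, where 36.1% and 15.2% of all genes tested did.

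*Xbp1* was lower in each CD11b- library than in any PM library, with a difference of -0.94 ± 0.25 (SE, limma adjusted p = 0.0229). Without PM replicate 2 or 3, or without CD11b- replicate 1 or 2, the adjusted p was 0.0713, 0.0694, 0.0897 and 0.0953. *Ern1* was also lower in CD11b- B cells, at 7.21, 7.05 and 8.82 FPKM in PMs (difference -1.98, limma adjusted p = 0.000956). *Prdm1* and *Tent5c*, with differences of 0.51 and 0.23 (limma adjusted p = 0.315 and 0.496), overlapped between CD11b- B cells and PMs, as did *Sdc1* (-0.48, adjusted p = 0.553). *Ell2* did not overlap, and its difference of 1.07 missed the threshold (limma adjusted p = 0.0557), though it was called in 4 of 15 alternatives. With a pseudocount of 0.1 the differences were 6.27 for *Mzb1*, 1.31 for *Prdm1*, 0.83 for *Tent5c*, -0.96 for *Sdc1* and 1.63 for *Ell2*, and the calls for these 5 genes stayed on the same side of the threshold.

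The other lists gave the following in these comparisons. Of the 20 other plasma cell genes, 7 rose and 4 fell in CD11b+ B cells against PMs, and 6 rose and 8 fell in CD11b- B cells against PMs, by limma. Beside these and the counts that follow, 21.5% of all genes tested rose and 8.78% fell in CD11b+ B cells, and 25.8% rose and 11% fell in CD11b- B cells. The largest differences of CD11b+ B cells among those called were *Ly6c2* (4.90), *Derl3* (3.92) and *Trp53inp1* (3.36) upward and *Tmem176b* (-4.97), *Il6ra* (-3.19) and *Cd93* (-2.58) downward. Of 24 partners and paralogs tested, 11 rose and 7 fell in CD11b+ B cells and 12 rose and 8 fell in CD11b- B cells. Families split between the cell types. The differences of CD11b+ B cells from PMs were -6.22 for *Sdc3* and 4.33 for *Sdc4* (limma adjusted p = 8.00e-07 and 6.08e-05), -4.56 for *Tent5a* (3.52e-05), and 4.22 for *Slamf6* and -2.12 for *Slamf8* (9.22e-06 and 0.00254). Of the 17 genes shut down in plasma cells, 13 rose and 2 fell in CD11b+ B cells against PMs and 14 rose and 2 fell in CD11b- B cells. Of the immunoglobulin constant genes, 10 of 12 and 7 of 11 tested rose and 0 fell.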

How the data were processed

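Groups and replicate numbers came from the sample titles. The authors mapped trimmed read pairs to GRCm38 (STAR 2.7.2b), counted them on genes (featureCounts 1.6.1) and deposited FPKM for 55322 genes with exon lengths. A second deposited table gives a normalized signal (counts divided by size factors) for 11063 genes, and it served only to check the reads. FPKM times exon length gave whole reads (within 0.05) for 100% of values. limma 3.58.1 (R 4.3.3; lmFit, eBayes with trend, two-sided) was fitted to log2(FPKM + 1) of the 6 libraries compared, for every gene whose mean FPKM there reached 0.05, and p-values were adjusted by Benjamini-Hochberg over all these genes (threshold 0.05). edgeR 4.0.16 and DESeq2 1.42.0 (at least 10 reads) on the whole reads were alternatives, beside other pseudocounts, filters and scalings, replicate blocks and each library left out. The scripts were tested on simulated counts. Reads from amplified cDNA are not molecules, so read numbers show counting depth only.

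The members and lists were chosen with earlier results of these data known. Named genes are the 10 members, genes of the lists past the threshold (at most 3 per direction), partners and paralogs, and those said to be named after their values were seen. Positions are from GENCODE M21 by identifier, since starts in the deposited tables were the same for only 1462 of 52046 identifiers. Authors' cluster labels were not used. 1 gene of the marker lists is not reported here, and sums and counts of those lists leave it out.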

Additional observations from a re-analysis of the deposited data

How the results depend on the processing

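Over the alternatives, 432 of 457 values of single plasma cell genes kept their direction and their side of the threshold, 4 changed sign, 11 lost a call and 10 gained one. Between the B cell groups, all genes called higher (15) and lower (0) became 34 and 3 with a pseudocount of 0.1, 2 and 0 without a filter, 31 and 0 with a minimum mean FPKM of 1, 31 and 4 with all 9 libraries in one fit, 42 and 0 in edgeR, and 328 and 64 in DESeq2, where 3 of the 10 genes were called. Leaving out a library gave 3 to 40 genes higher, and 0 to 1 of the 10. *Irf4* and *Slamf7*, not called in any setting, changed sign to 0.041 and 0.011 without CD11b- replicate 3 and ranged down to -0.41 and -0.45 with another library left out. For CD11b+ B cells against PMs, 2766 genes were higher after median-ratio scaling and 2850 in edgeR, 3418 were lower in DESeq2, and edgeR and DESeq2 each called 1 of the 10 lower (*Xbp1*). Leaving out a library gave 3152 to 4919 genes higher. *Sdc1*, not called, became -0.034 after median-ratio scaling and -0.086 without CD11b+ replicate 3 (up to 0.74 without replicate 2), and *Ell2* was called in 9 of 15 alternatives. For CD11b- B cells against PMs, 3330 genes were higher after median-ratio scaling and 3200 in edgeR, 4030 were lower in DESeq2, and *Xbp1* was not called without a filter (0 of the 10 lower, and 0 to 1 with a library left out). The cause of these shifts was not tested, except that fewer libraries or more genes tested are part of some settings.

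Replicates share numbers in the titles. Deviations of same-numbered CD11b+ and CD11b- libraries correlated at 0.29, -0.02 and 0.21 for replicates 1, 2 and 3. The sample descriptions carry numbers of their own, which tie replicate 1 to replicate 1 and replicate 3 to replicate 3 of the B cell groups but not replicate 2. Libraries of the B cell groups with different title numbers correlated at -0.30 to 0.14. So 1 of 3 pairs by title was not over 0.1, and that pair is the one not shared by description. The 2 pairs shared by title and description were those at 0.29 and 0.21. No source says what a number marks, and whether these pairs share mice was not tested. Without a block, the p-values treat all libraries as independent. The numbers were not taken as pairs. A replicate block by title number called 16 genes higher and 0 of the 10, and a block by description number 0 and 0. The block by description number leaves little of the data to estimate the spread, so its 0 calls say little about any gene. Against PMs the block by title gave 4111 and 4948 genes higher. *Prdm1*, *Sdc1* and *Tent5c* had at most 362, 1051 and 1210 reads in a library, which limits their precision.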

Other observations

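Genes of B-1 and marginal zone B cells, which make antibody early after LPS, were examined in the same comparison. Of 10 such markers, 0 were called in CD11b+ against CD11b- B cells by limma, 3 had an unadjusted p under 0.05, and 4 lay without overlap on the higher side and 0 on the lower. Of all genes tested, 4.65% were higher and 3.04% lower at an unadjusted p under 0.05, and 8.63% lay without overlap on the higher side and 6.32% on the lower. The means of 6 were higher and those of 4 (*Myof*, *S1pr3*, *Dtx1* and *Cd1d1*) lower in CD11b+ B cells. *Zbtb32*, which encodes a transcriptional repressor found in B-1 B cells, had 5.25, 3.57 and 1.5 FPKM in CD11b- and 55.7, 32.4 and 19.9 in CD11b+ B cells, a difference of 3.04 (limma adjusted p = 0.0765). Its highest CD11b+ library was replicate 1, where that of *Jchain* was replicate 3. *Ctla4*, a checkpoint receptor, had 0.0129, 0 and 0.482 FPKM in CD11b- and 1.59, 0.836 and 1.86 in CD11b+ B cells (limma adjusted p = 0.350). Both genes were picked after their values were seen.

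The 10 cell cycle genes examined, which mark dividing cells of any type, had higher means in CD11b+ B cells in all 10 cases, with 0 calls in limma, 5 at an unadjusted p under 0.05 (beside the shares of all genes above) and a median difference of 1.27. Their summed FPKM was 172, 109 and 48.2 in CD11b- and 374, 336 and 114 in CD11b+ replicates 1, 2 and 3. Replicate 3, highest in both groups for *Xbp1*, *Jchain*, *Sdc1*, *Pou2af1*, *Tent5c* and *Slamf7*, was lowest in both for this sum. The other marker lists gave 0 calls between the B cell groups for B cell, monocyte and macrophage, resident peritoneal macrophage, plasmacytoid dendritic cell, T cell and NK cell genes in limma (0, 9, 3, 2, 0 and 2 at an unadjusted p under 0.05). Of 13 neutrophil genes, 3 were called higher, beside 0.0689% of all genes tested called higher and 0% lower. The median difference of the 13 was 3.63, beside 0.03 for all genes tested. The 3 called were *S100a8*, *S100a9* and *Retnlg*, called in 14, 10 and 14 of 16 alternatives.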
